A study of Mus musculus with 24 samples.

Results

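Cyclic nucleotide phosphodiesterases are the enzymes that break down cAMP and cGMP, the second messengers that relay hormone, neurotransmitter and nitric oxide signals inside cells. Pde3a encodes a phosphodiesterase that hydrolyses cAMP and is inhibited by cGMP, so that it links the levels of both messengers, and it is best known from heart, platelets and smooth muscle. Mrvi1 (now also called Irag1) is no phosphodiesterase: it encodes a substrate of cGMP-dependent protein kinase that sits on the inositol trisphosphate receptor and takes part in the relaxation of smooth muscle. Myoepithelial cells of the mammary gland are contractile like smooth muscle, and cyclic nucleotides oppose contraction in such cells.

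The group described here was 10 genes of the 27080 with a deposited count: Pde3a, Pde3b, Pde4b, Pde4d, Pde5a, Pde1a, Pde1c, Pde7b, Pde10a and Mrvi1, all of which were found by Entrez identifier. They were a named list, proposed with earlier results of these data known. Pde3a was chosen by its differences in both marks with Lgr5 and with Tspan8, and Mrvi1 by its H3K27me3, so those values are given below as a description without a test. Mouse mammary basal cells of untreated C57BL/6 females had been sorted on Lgr5, the R-spondin receptor, and Tspan8, a surface protein of the tetraspanin family. This gave 4 subpopulations: Lgr5-Tspan8- (here double-negative), Lgr5+Tspan8-, Lgr5-Tspan8hi and Lgr5+Tspan8hi (here double-positive). All groups shared the strain, sex, tissue and absence of treatment, and the age of the mice was not given. H3K4me3, which is found at promoters in use or ready for use, and H3K27me3, which Polycomb places on silent genes, were each measured by chromatin immunoprecipitation and sequencing in 2 libraries per subpopulation. Whether the 2 replicates were separate animals is not given by the labels, so p-values here cover only how far these samples spread, and that spread may be technical. The counts come from sorted cells in bulk, so fewer cells with a mark and less mark per cell cannot be told apart.

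Total counts ran from 1472251 to 4740371 per H3K4me3 library and from 2639862 to 6972189 per H3K27me3 library. Values below are CPM, the count as a share of the library total after scaling with TMM factors. The Tspan8hi libraries had reads that covered fewer genes than their totals would give. Effective depth, the percent of a library's total that would account for its genes without a count if reads were independent, was 17.2 to 47.6% in Tspan8hi and 55.5 to 99.3% in Tspan8- libraries for H3K4me3, and 31.1 to 64.6% against 72.0 to 79.0% for H3K27me3 (exact two-sided permutation p = 0.0286 for each mark, n = 4 against 4, the smallest this design allows). Lgr5+ and Lgr5- libraries overlapped in it (exact two-sided permutation p = 1.0 and 0.771, n = 4 against 4). Its part in the Tspan8 differences below was not tested. The 12 basal and myoepithelial markers (Krt5, Krt14, Trp63, Acta2 and 8 others) summed to H3K4me3 of 953 to 1082 CPM in double-positive, 1225 to 1261 in Lgr5+Tspan8-, 1125 to 1159 for Lgr5-Tspan8hi and 1050 to 1180 in double-negative libraries, and to H3K27me3 of 280 to 392, 208 to 211, 257 to 290 and 246 to 337 CPM. With Tspan8, 9 of 11 tested were below 0 in H3K4me3 (median log2 difference -0.10) and 2 of 11 in H3K27me3 (median 0.31), the directions of Pde3a and Mrvi1 below. None was called by edgeR, which called 0.0473% of all genes in H3K4me3 and 0.335% in H3K27me3 with Tspan8. The part of these markers in the Pde3a and Mrvi1 results was not tested. The 12 luminal markers summed to 768 to 832 CPM in H3K4me3 and 797 to 860 CPM in H3K27me3.

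H3K4me3 was counted around the start of a gene, as far as the counts show, so the sequence there is the stretch those values bear on. RefSeq promoters of GRCm38.p6 were matched for 8 of the 10 genes, and Pde3a and Pde3b had no entry. The 250 bases before the start are shown for the 4 genes whose entry lies at the most upstream curated start, 5′ to 3′ on the strand of the gene, with each CpG dinucleotide in capitals, because promoters differ widely in CpG content and in H3K4me3. They were Pde5a (chr3:122728908-122729157, plus strand), Mrvi1 (chr7:110982462-110982711, minus strand), Pde4d (chr13:108653927-108654176, plus strand) and Pde1c (chr6:56369635-56369884, minus strand; the gene model extends further upstream, so the H3K4me3 count may belong to another start).
Pde5a: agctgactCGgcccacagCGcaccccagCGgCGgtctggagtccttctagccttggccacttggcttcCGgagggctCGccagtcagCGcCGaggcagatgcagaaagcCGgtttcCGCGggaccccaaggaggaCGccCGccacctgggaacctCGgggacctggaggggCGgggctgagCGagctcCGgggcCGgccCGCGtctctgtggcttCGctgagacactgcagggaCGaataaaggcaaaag
Mrvi1: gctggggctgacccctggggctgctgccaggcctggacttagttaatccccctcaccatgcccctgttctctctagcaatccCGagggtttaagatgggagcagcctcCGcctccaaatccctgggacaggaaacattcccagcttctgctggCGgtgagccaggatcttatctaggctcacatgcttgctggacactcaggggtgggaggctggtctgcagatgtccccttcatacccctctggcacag
Pde4d: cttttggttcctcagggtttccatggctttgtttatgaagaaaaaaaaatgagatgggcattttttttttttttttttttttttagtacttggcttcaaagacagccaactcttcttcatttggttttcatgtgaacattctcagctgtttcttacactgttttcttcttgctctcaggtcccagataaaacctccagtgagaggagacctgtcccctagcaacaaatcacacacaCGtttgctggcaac
Pde1c: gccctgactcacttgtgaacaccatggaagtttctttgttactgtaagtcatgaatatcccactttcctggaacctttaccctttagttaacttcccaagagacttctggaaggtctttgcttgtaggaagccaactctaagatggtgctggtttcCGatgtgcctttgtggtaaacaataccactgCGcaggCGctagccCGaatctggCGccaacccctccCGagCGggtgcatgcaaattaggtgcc

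The Pde5a stretch held 22 CpG at 68.4% G and C, more CpG than 85.2% of the 32851 promoter stretches of that length. Pde1c held 7 CpG at 49.6% G and C, Mrvi1 held 3 at 59.6% and Pde4d held 1 at 38.8%, against a median of 6 over all promoters. H3K4me3 was 98.6 to 129 CPM at Pde5a, 31.1 to 63.1 CPM at Mrvi1, 0.456 to 6.00 CPM at Pde4d and 0 to 3.15 CPM at Pde1c. Pde5a had the most of both CpG and H3K4me3 among the 4, and Pde5a, Mrvi1 and Pde4d stood in the same order in both. Pde1c had more CpG than Mrvi1 and less H3K4me3, but its count may belong to another start, so its place in that order cannot be read. The cAMP response element TGACGTCA was in none of the 4 stretches and in 1.5% of all promoters, and its shorter form TGACG, which the full element contains, was in none of them and in 17.8% of all. The GC box GGGCGG was in Pde5a and not in the other 3, and in 32.7% of all promoters (both strands searched). These are matches of letters in a short window and show no bound factor.

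Pde3a (chromosome 6, 141249269 to 141506862, plus strand, GRCm38) stood in 3 steps across the subpopulations, and its marks were at opposite ends in double-positive and double-negative cells. The predicted gene Gm28523 starts within 2 kb of it and may share its H3K4me3 reads. H3K4me3 at its start was 15.8 and 19.4 CPM in the Lgr5+Tspan8hi libraries, 39.0 and 49.3 CPM in Lgr5+Tspan8-, 44.7 and 43.4 CPM for Lgr5-Tspan8hi, and 73.5 and 84.9 CPM in Lgr5-Tspan8-. The double-positive libraries were lowest and the double-negative ones highest, and neither overlapped any other subpopulation. The Lgr5+Tspan8- and Lgr5-Tspan8hi libraries overlapped, with means of 44.2 and 44.0 CPM. Between the ends of this order, 17.6 and 79.2 CPM on average, H3K4me3 differed 4.49-fold. From double-positive to Lgr5+Tspan8- it was 2.51-fold higher, and from Lgr5+Tspan8- to double-negative 1.79-fold higher.

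H3K27me3 over the Pde3a gene ran the other way. It was 312 and 343 CPM in double-positive, 272 and 262 CPM in Lgr5+Tspan8-, 256 and 264 CPM for Lgr5-Tspan8hi, and 135 and 122 CPM in double-negative libraries. The double-positive libraries were now highest and the double-negative ones lowest, again with overlap between Lgr5+Tspan8- and Lgr5-Tspan8hi and with no overlap elsewhere. The double-positive mean of 328 CPM was 2.55-fold the double-negative mean of 128 CPM. Most of that span lay between the double-negative cells and the rest: Lgr5+Tspan8- was 2.08-fold and Lgr5-Tspan8hi 2.02-fold the double-negative level, while double-positive was 1.23-fold Lgr5+Tspan8-. The log2 ratio of H3K4me3 to H3K27me3 CPM at Pde3a was taken with libraries matched by subpopulation and replicate number. It was -4.30 and -4.15 in double-positive, -2.80 and -2.41 in Lgr5+Tspan8-, -2.52 and -2.61 for Lgr5-Tspan8hi, and -0.88 and -0.52 in double-negative cells. The ratio was lowest in both double-positive and highest in both double-negative matches.

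**Figure D1:**
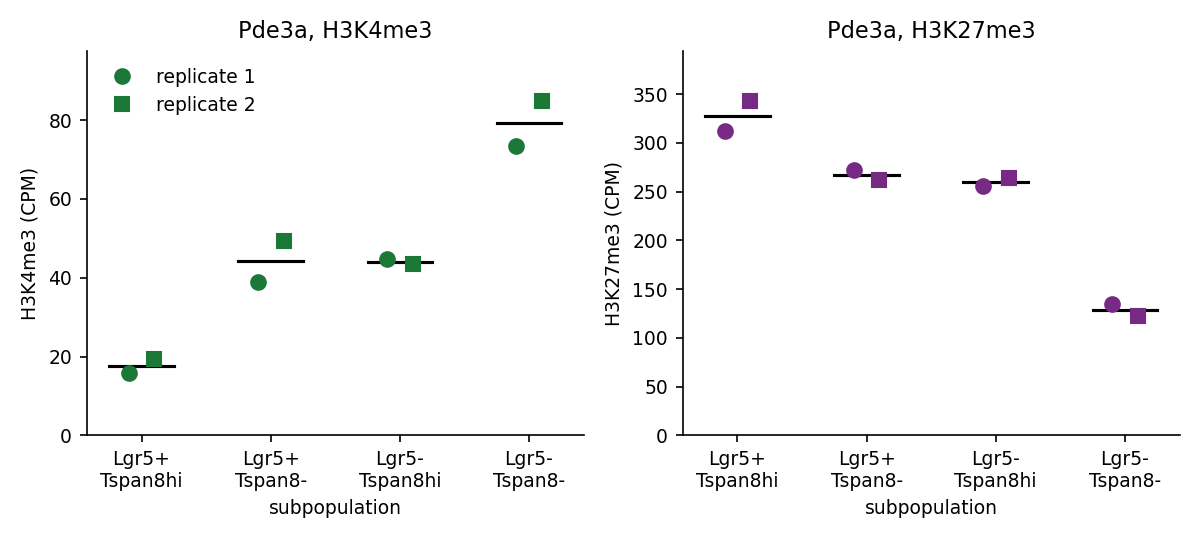
H3K4me3 (left) and H3K27me3 (right) at Pde3a in CPM for each library of the 4 subpopulations, with replicate 1 as circles, replicate 2 as squares and the mean of the 2 as a bar. H3K4me3 is lowest in Lgr5+Tspan8hi (15.8 and 19.4 CPM) and highest in Lgr5-Tspan8- (73.5 and 84.9 CPM), and H3K27me3 is highest and lowest in the same 2 subpopulations.

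Averaged over the other sorting gene, the edgeR log2 difference in H3K4me3 at Pde3a was -1.08 ± 0.19 (SE) for Tspan8hi minus Tspan8- and -1.09 ± 0.19 for Lgr5+ minus Lgr5- libraries (4 against 4 in each). For H3K27me3 the corresponding values were 0.66 ± 0.09 and 0.69 ± 0.09. These 4 values chose the gene. The 4 libraries on one side overlapped the 4 on the other in each case, since each side holds one of the middle subpopulations. A further question is whether the difference with Tspan8 depends on Lgr5. The interaction term tests this on the same libraries that chose the gene. Earlier results of these data were known, so its p-values may not be independent of that choice. For H3K4me3 that term was -0.44 ± 0.38 and did not pass the threshold, an adjusted p under 0.05 over all genes (edgeR adjusted p = 1.0, unadjusted p = 0.246). For H3K27me3 it was -0.72 ± 0.18, which reflects a log2 difference with Tspan8 of 0.30 in Lgr5+ and 1.02 in Lgr5- cells. It did not pass with edgeR (adjusted p = 0.287, unadjusted p = 0.000431) and did with DESeq2 (adjusted p = 0.0436). edgeR called the interaction at 0% of genes for H3K4me3 and at 0.00905% for H3K27me3.

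The marks of the surrounding genes were also read, a set chosen after the values were seen. Of 18 counted genes within 1 Mb of Pde3a, none passed in H3K27me3 with Tspan8 or with Lgr5 by edgeR, nor did any of the 11 tested for H3K4me3. Over all genes edgeR called 0.335% with Tspan8 and 0.0407% with Lgr5 in H3K27me3, and 0.0473% and 0.0421% in H3K4me3. A count of 0 among so few genes is therefore near the background. Slco1c1, an organic anion transporter gene that begins 17.5 kb downstream of Pde3a, had mean H3K27me3 of 62.0, 66.9, 46.4 and 52.7 CPM in double-positive, Lgr5+Tspan8-, Lgr5-Tspan8hi and then double-negative cells. Aebp2, which encodes a Polycomb cofactor and lies 571 kb upstream, stood at 27.9, 22.5, 27.2 and 26.7 CPM in the same order. Neither had the Pde3a order. By their means, Plekha5, Gm6614, Recql and Golt1b were also highest in double-positive and lowest in double-negative cells. Gm6614, 465 kb away, stood at 47.8, 44.2, 40.1 and 31.6 CPM, and Recql at 9.37, 7.76, 7.22 and 6.71 CPM. The predicted gene Gm10400 lies inside Pde3a and cannot be told apart from it, but holds few of its reads, at 1.5 to 7.47 CPM.

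**Figure D2:**
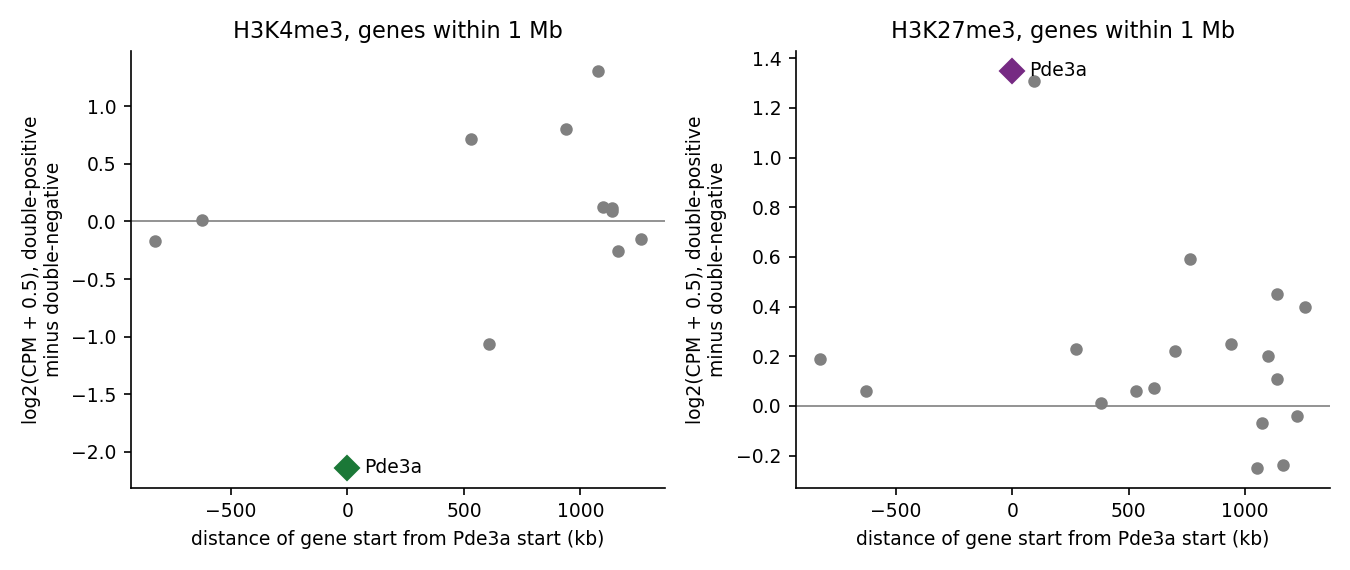
Difference between double-positive and double-negative means, in log2(CPM + 0.5), for genes within 1 Mb of Pde3a against the distance of their start from the Pde3a start, with H3K4me3 on the left (11 tested neighbours) and H3K27me3 on the right (18 neighbours). Pde3a, the diamond, is lowest in H3K4me3 and highest in H3K27me3, and the grey point nearest to it in H3K27me3 is Gm10400, which lies inside Pde3a.

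Of the marker lists of other cells, the fibroblast list was highest in double-negative libraries without overlap, as Pde3a was in H3K4me3. The 10 fibroblast markers summed to H3K4me3 of 204 to 212 CPM in double-positive, 229 to 242 in Lgr5+Tspan8-, 185 to 259 for Lgr5-Tspan8hi and 304 to 311 in double-negative libraries. Col3a1 and Fap were without a count in at least 1 library and no marker was at 0 in all. Dcn, the matrix proteoglycan decorin, was lowest in double-positive and highest in double-negative cells, with means of 11.1, 21.5, 32.3 and 62.1 CPM. Of the 9 markers of the list tested, Dcn was the 1 that edgeR called, with Lgr5, where it called 0.0421% of all genes. Col1a1, a fibrillar collagen gene, had means between 24.2 and 37.5 CPM, the highest in double-positive cells. Col1a2, Pdgfra and Fap also had lower means in double-negative than in double-positive cells. Col3a1, Lum, Prrx1, Twist2 and Dpt had higher ones. H3K27me3 summed over the fibroblast list was 478 to 540 CPM in the 8 libraries, with 22.1, 21.5, 22.3 and 19.1 CPM at Dcn. The 10 pericyte and vascular smooth muscle markers summed to H3K4me3 of 184 to 196, 192 to 244, 178 to 212 and 220 to 253 CPM in the same order, with none at 0 in any library. Their highest sum was also in a double-negative library, but these overlapped Lgr5+Tspan8-. The 8 endothelial markers did not peak there, at 93.2 to 138, 89.3 to 101, 84.7 to 93.4 and 103 to 118 CPM, nor did the 8 immune markers, at 33.8 to 45.3, 23.7 to 42.5, 36.3 to 44.2 and 40.8 to 41.8 CPM. The part of such cells in the Pde3a values was not tested.

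Mrvi1 (chromosome 7, 110868257 to 110982909, minus strand) was separated by Tspan8 state in both marks, while its Lgr5+ and Lgr5- libraries overlapped. H3K4me3 was 50.1 and 34.4 CPM in Lgr5+Tspan8hi and 39.7 and 31.1 CPM for Lgr5-Tspan8hi libraries, against 60.9 and 61.0 CPM in Lgr5+Tspan8- and 56.6 and 63.1 CPM in Lgr5-Tspan8-. All 4 Tspan8hi libraries lay below all 4 Tspan8- libraries, at 38.8 ± 8.30 against 60.4 ± 2.74 CPM (SD, n = 4 each). The share of all genes separated in this way was not counted, so the separation is given as a description. Reads at Mrvi1 may be shared with Gm16336, a counted gene that overlaps it. The log2 difference of -0.65 ± 0.18 did not pass over all genes (edgeR adjusted p = 0.263, DESeq2 adjusted p = 0.299), in a comparison where edgeR called 0.0473% of genes. With Lgr5 the H3K4me3 difference was 0.13 ± 0.18 (edgeR adjusted p = 0.999), where 0.0421% of genes were called.

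H3K27me3 at Mrvi1, which chose the gene, was 69.8 and 59.7 CPM in Lgr5+Tspan8hi and 68.2 and 56.9 CPM for Lgr5-Tspan8hi libraries, against 30.4 and 44.8 CPM in Lgr5+Tspan8- and 46.5 and 38.0 CPM in Lgr5-Tspan8-. The 2 sides again did not overlap, and the log2 difference was 0.67 ± 0.14 with Tspan8 and -0.05 ± 0.14 with Lgr5. The background shares in these H3K27me3 comparisons were 0.335% of genes with Tspan8 and 0.0407% with Lgr5. The interaction was 0.23 ± 0.36 for H3K4me3 and 0.22 ± 0.29 for H3K27me3 (edgeR adjusted p = 1.0 and 0.993). The log2 ratio of H3K4me3 to H3K27me3 CPM at Mrvi1, matched by replicate number, was -0.87 to -0.48 in the 4 Tspan8hi and 0.28 to 1.00 in the 4 Tspan8- matches. Mrvi1 and Pde3a thus shared high H3K27me3 and low H3K4me3 in double-positive cells and differed in Lgr5-Tspan8hi and Lgr5+Tspan8- cells. In Lgr5-Tspan8hi cells Mrvi1 was at the double-positive level and Pde3a at the middle one. In Lgr5+Tspan8- cells Pde3a was again at the middle level. Mrvi1 there was near the double-negative level, at 60.9 against 59.8 CPM in H3K4me3 and 37.6 against 42.2 CPM in H3K27me3.

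**Figure D3:**
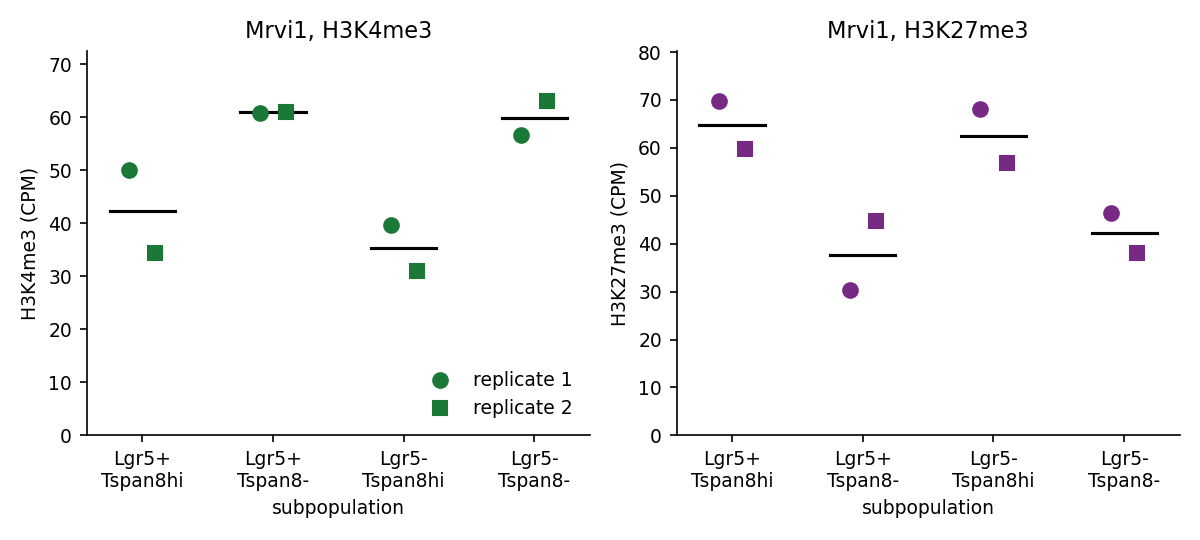
H3K4me3 (left) and H3K27me3 (right) at Mrvi1 in CPM for each library of the 4 subpopulations, with replicate 1 as circles, replicate 2 as squares and the mean of the 2 as a bar. The 4 Tspan8hi libraries lie below the 4 Tspan8- libraries in H3K4me3 (31.1 to 50.1 against 56.6 to 63.1 CPM) and above them in H3K27me3 (56.9 to 69.8 against 30.4 to 46.5 CPM).

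Of the other 8 phosphodiesterase genes, none passed with edgeR or DESeq2 in any of the 3 comparisons of either mark. edgeR called between 0% and 0.335% of all genes in these comparisons, so a count of 0 among 8 genes is near the background. Pde1c had too few H3K4me3 counts to be tested, which left 7 of them for that mark. For H3K4me3 the log2 differences of these 7 ran from -0.84 to 0.27 with Tspan8 and from -0.82 to 1.01 with Lgr5 (edgeR adjusted p from 0.881 to 0.996 and from 0.949 to 1.0). For H3K27me3 the 8 ran from -0.22 to 0.27 and from 0.05 to 0.15 (edgeR adjusted p from 0.277 to 0.984 and from 0.807 to 0.949). Unadjusted p was under 0.05 at 2 of the 8 in H3K27me3 with Tspan8, Pde1c and Pde5a, and at 1 of the 7 in H3K4me3 with Lgr5, Pde7b. Over all genes that share was 12.9% and 4.98%, so the counts are read against those shares and as no result about the members.

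Pde3b (chromosome 7, 114415222 to 114537938) encodes the close relative of Pde3a that acts in fat cells and liver downstream of insulin. Its H3K4me3 was 56.1 and 60.7 CPM in double-positive, 48.1 and 66.4 in Lgr5+Tspan8-, 62.4 and 50.1 for Lgr5-Tspan8hi, and 57.7 and 73.5 in double-negative libraries. The subpopulations overlapped throughout, 4933406I18Rik starts within 2 kb and may share these reads, and the log2 differences were -0.10 ± 0.16 with Tspan8 and -0.09 ± 0.16 with Lgr5. H3K27me3 was 222 to 298 CPM, with differences of -0.15 ± 0.09 and 0.15 ± 0.09. Per kb of gene it had the most H3K27me3 of the 10, at 2.03 CPM per kb, above 81.5% of tested genes, against 0.954 CPM per kb at Pde3a.

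Pde4b and Pde4d encode cAMP-specific enzymes that are targets of anti-inflammatory drugs. H3K4me3 at Pde4b (chromosome 4, 102087332 to 102607275) was 45.0 to 76.5 CPM with a median of 60.8, and at Pde4d (chromosome 13, 108654177 to 109955969) 0.456 to 6.00 CPM, which was 1 to 15 reads per library. Pde4d is 1301.8 kb long and is known to be transcribed from several promoters, of which a count at its first start would include only that one. H3K27me3 was 143 to 194 CPM at Pde4b and 1097 to 1303 CPM at Pde4d, which per length came to 0.311 and 0.919 CPM per kb. The differences of both genes in H3K27me3 were -0.04 ± 0.10 and -0.01 ± 0.08 with Tspan8, and 0.11 ± 0.10 and 0.09 ± 0.08 with Lgr5.

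Pde5a (chromosome 3, 122729158 to 122859374), which breaks down cGMP and is the target of sildenafil, was the member whose H3K4me3 varied least, from 98.6 to 129 CPM. Its start is the CpG-rich stretch printed above. The differences were -0.05 ± 0.12 with Tspan8 and 0.16 ± 0.12 with Lgr5 in H3K4me3. H3K27me3 at Pde5a was 86.0 and 79.2 CPM in double-positive, 67.1 and 52.0 in Lgr5+Tspan8-, 73.8 and 61.5 for Lgr5-Tspan8hi, and 72.1 and 56.5 in double-negative libraries. The double-positive libraries were the highest pair, but the other subpopulations overlapped one another, and the difference of 0.27 ± 0.13 with Tspan8 did not pass (edgeR adjusted p = 0.37).

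The Pde1 genes encode phosphodiesterases switched on by calcium and calmodulin. Pde1a (chromosome 2, 79834453 to 80196522) and Pde1c (chromosome 6, 56069798 to 56652510) had next to no H3K4me3, at 1.28 to 5.07 and 0 to 3.15 CPM. At Pde1a it was 1.28 and 1.56 CPM in double-positive, 2.19 and 2.05 in Lgr5+Tspan8-, 1.82 and 2.36 for Lgr5-Tspan8hi, and 4.08 and 5.07 in double-negative libraries. These values had the order of Pde3a, but rest on 3 to 24 reads a library, and no difference passed. H3K27me3 was 285 to 361 CPM at Pde1a and 397 to 561 CPM at Pde1c, or 0.876 and 0.780 CPM per kb. At Pde1c, 561 and 485 CPM in Lgr5+Tspan8- were above the 397 and 435 CPM of Lgr5+Tspan8hi, and the difference of -0.22 ± 0.09 with Tspan8 did not pass (edgeR adjusted p = 0.277). Without Lgr5-Tspan8- replicate 1 it passed, at -0.30 (edgeR adjusted p = 0.0163).

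Pde7b, a cAMP-specific enzyme (chromosome 10, 20397052 to 20725078), had H3K4me3 of 19.3 and 28.8 CPM in double-positive, 23.3 and 19.2 in Lgr5+Tspan8-, 34.6 and 28.4 for Lgr5-Tspan8hi, and 49.6 and 26.0 in double-negative libraries. The Lgr5- libraries had the higher mean, 34.6 ± 10.6 against 22.6 ± 4.53 CPM (SD, n = 4 each), with overlap, and the log2 difference of -0.57 ± 0.24 did not pass (edgeR adjusted p = 0.949). H3K27me3 there was 183 to 229 CPM. Pde10a, which acts on cAMP and cGMP and is abundant in the striatum (chromosome 17, 8525187 to 8986648), was at 70.0 to 107 CPM for H3K4me3 and 364 to 514 CPM for H3K27me3, with differences between -0.18 and 0.11 in both averaged comparisons of both marks.

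**Figure D4:**
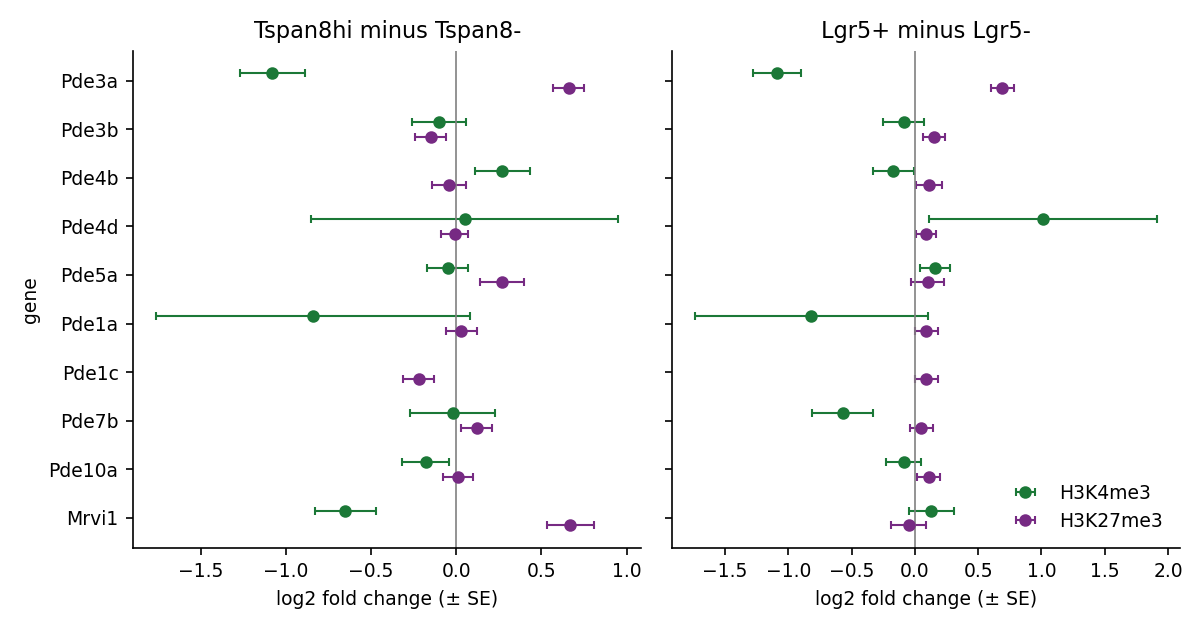
Log2 fold change with its SE for the 10 genes, Tspan8hi minus Tspan8- on the left and Lgr5+ minus Lgr5- on the right, with H3K4me3 in green and H3K27me3 in purple. Pde3a lies below 0 in H3K4me3 and above 0 in H3K27me3 in both panels, Mrvi1 only in the left panel, and Pde1c was not tested for H3K4me3. Pde1a, Pde7b and Pde10a have the signs of Pde3a in both panels, with no difference that passed.

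**Figure D5:**
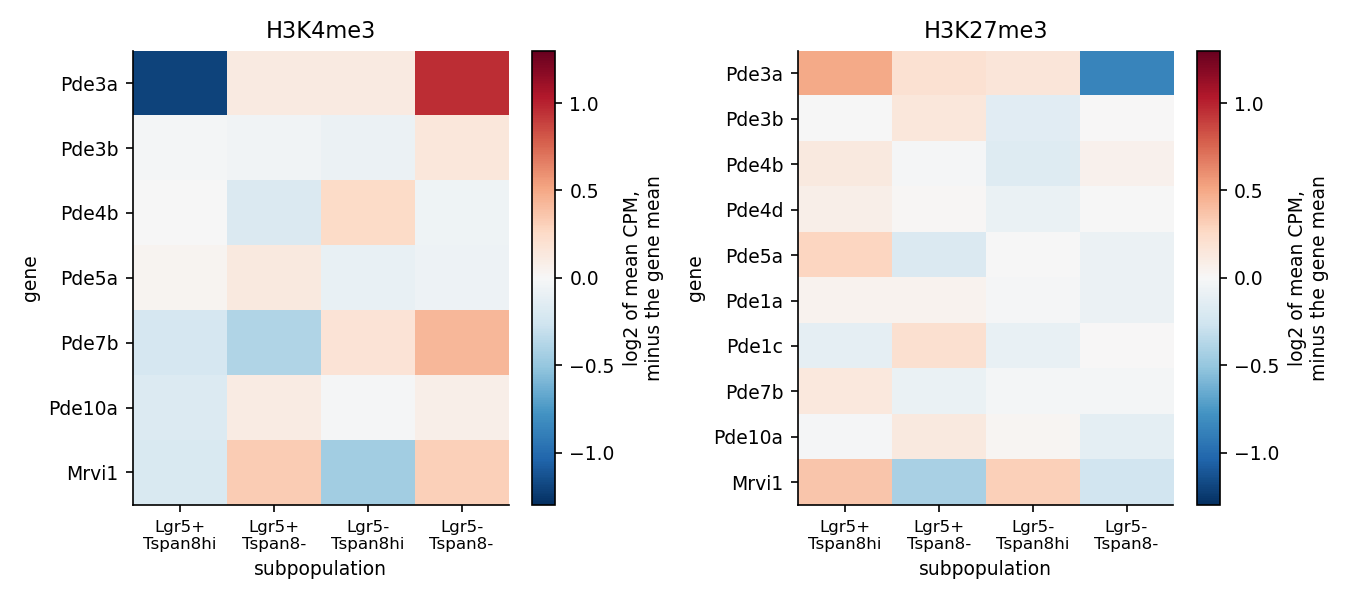
Log2 of the mean CPM in each subpopulation minus the mean over the 4 for each gene, with H3K4me3 on the left and H3K27me3 on the right; genes with a library at or below 10 CPM (Pde4d, Pde1a and Pde1c in H3K4me3) are left out. The strongest colours are those of Pde3a, whose H3K4me3 runs from 17.6 to 79.2 CPM and whose H3K27me3 runs from 328 to 128 CPM between the double-positive and double-negative cells.

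The rest of the cyclic nucleotide pathway was read from 7 lists of 78 genes, of which 77 were found among the counts. The lists held 12 other phosphodiesterases, adenylyl cyclases that make cAMP, makers of cGMP, effectors of cAMP, effectors of cGMP with partners of Mrvi1, A-kinase anchors and receptors that raise cAMP. With edgeR, 0 of the 68 genes tested for H3K4me3 and 0 of the 77 tested for H3K27me3 passed in any of the 3 comparisons. Over all genes edgeR called 0% to 0.0473% for H3K4me3 and 0.00905% to 0.335% for H3K27me3, so these counts are near the background. At an unadjusted p under 0.05 there were 7 for H3K4me3 and 17 for H3K27me3 with Tspan8, 3 and 8 with Lgr5, and 5 and 11 in the interaction. Over all genes the corresponding shares were 5.9% and 12.9% with Tspan8, 4.98% and 7.19% with Lgr5, and 4.2% and 5.5% in the interaction. DESeq2 called none for H3K4me3 and 3, 1 and 0 for H3K27me3, where it called 2.15%, 0.321% and 0.0543% of all genes. The median log2 difference with Tspan8 in H3K27me3 was 0.14 over the 77 genes and 0.02 over all genes, and with Lgr5 it was 0.02 and -0.01. By list, the Tspan8 median in H3K27me3 was 0.33 for 11 receptors that raise cAMP, 0.23 for 7 cGMP effectors, 0.15 for 13 cGMP makers, 0.12 for 10 adenylyl cyclases and for 10 anchors, 0.10 for 14 cAMP effectors and -0.07 for 12 phosphodiesterases. In H3K4me3 the list medians with Tspan8 ran from -0.14 to 0.04.

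By the smallest p of each list, Calcrl, a receptor component for adrenomedullin and CGRP that raises cAMP, came nearest to the threshold. Its H3K27me3 was 141 and 139 CPM in double-positive, 148 and 126 in Lgr5+Tspan8-, 122 and 110 for Lgr5-Tspan8hi, and 86.7 and 87.7 in double-negative libraries. All Lgr5+ libraries lay above all Lgr5- libraries, with a log2 difference of 0.47 ± 0.10 (edgeR adjusted p = 0.0923, DESeq2 adjusted p = 0.00605). How many of all genes separate in this way was not counted. Pde4c, a further cAMP-specific phosphodiesterase, had H3K27me3 of 127 ± 13.1 CPM in Tspan8hi and 163 ± 32.8 CPM in Tspan8- libraries (SD, n = 4 each; log2 difference -0.36 ± 0.11, edgeR adjusted p = 0.133, DESeq2 adjusted p = 0.0353). Pkig, an inhibitor of protein kinase A, stood at 38.1 ± 9.25 CPM with Lgr5 and 51.9 ± 3.90 CPM without it for H3K27me3 (log2 difference -0.47 ± 0.14, edgeR adjusted p = 0.324).

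For H3K4me3 the genes named with Lgr5 included Pde4a, at 60.3 ± 5.65 CPM where Lgr5 was present and 84.3 ± 9.91 CPM where it was not (SD, n = 4 each; log2 difference -0.48 ± 0.15, edgeR adjusted p = 0.691), and Gucy1a1, a subunit of the nitric oxide receptor that makes cGMP, at 34.4 ± 6.43 against 51.4 ± 12.3 CPM (-0.59 ± 0.20, edgeR adjusted p = 0.814). Adcy2, an adenylyl cyclase gene, had a difference of -0.53 ± 0.21 with Tspan8, and Akap5, an anchor of protein kinase A, of -0.39 ± 0.22 with Lgr5 (edgeR adjusted p = 0.733 and 0.971). Prkg1 and Prkg2, the genes of the cGMP-dependent kinases, had H3K27me3 of 1110 and 866 CPM and of 112 and 80.1 CPM in double-positive libraries. In Lgr5+Tspan8- libraries they had 715 and 674 CPM and 59.8 and 54.7 CPM. In Lgr5- cells the libraries of both genes overlapped between the Tspan8 states, and the interaction terms of 0.57 ± 0.20 and 0.80 ± 0.28 did not pass (edgeR adjusted p = 0.759 for each). That of Prkg1 passed without Lgr5-Tspan8- replicate 2 (0.80, edgeR adjusted p = 0.0232). The anchor gene Akap12 had mean H3K27me3 of 83.6, 55.8, 69.4 and 72.4 CPM in double-positive, Lgr5+Tspan8-, Lgr5-Tspan8hi and then double-negative cells (interaction 0.65 ± 0.23, edgeR adjusted p = 0.759). Interaction terms were also the smallest in p for Adcy8 in H3K27me3 (-0.35 ± 0.18) and for Prkar1b, a regulatory subunit of protein kinase A, in H3K4me3 (-0.89 ± 0.38), with edgeR adjusted p of 0.914 and 1.0.

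The genes most like Pde3a were found by the root mean square difference of log2 CPM, each gene centred on its own mean, over the 8 libraries of a mark; a gene with no variation would be at 0.77 for H3K4me3 and 0.51 for H3K27me3. In H3K4me3, over 12393 genes, these were Stac at 0.33, Egfem1 at 0.36, and Fezf2, Spon2 and Trpc4 at 0.37. In H3K27me3, over 6868 genes, they were the T-box factor gene Tbx2 at 0.19, Stac at 0.20, the cyclin gene Ccnd2 at 0.21, and Arsj and the phosphatase gene Ptprt at 0.24. Stac, which encodes an adaptor of voltage-gated calcium channels (chromosome 9), was on both lists, with H3K4me3 of 15.6, 33.3, 34.8 and 42.0 CPM and H3K27me3 of 201, 164, 198 and 105 CPM in double-positive, Lgr5+Tspan8-, Lgr5-Tspan8hi and then double-negative cells. Tbx2 had H3K27me3 of 98.3, 78.3, 89.2 and 31.2 CPM and H3K4me3 of 51.5, 64.7, 75.3 and 130 CPM in that order. Likeness over 8 libraries includes what the libraries share, such as depth.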

How the data were processed

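For each of 16 libraries, 8 per mark, the authors deposited raw read counts per Entrez gene, without normalization. The submitters' processing notes name featureCounts and mm10. No source used here gives the aligner, versions, annotation or region counted. The 8 input samples were not analysed here. Neighbouring starts under 1 kb apart shared their H3K4me3 counts (median ratio 1.01 over 1671 pairs) but not their H3K27me3 counts (4.14 over 1152 pairs), so the former are read as counts around starts and the latter as counts over genes. Replicates differed beyond sampling noise (chi-square per degree of freedom 3.07 to 5.91).

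Symbols and positions came from RefSeq GRCm38.p6, which matched 25189 identifiers. Each mark was fitted on its 8 libraries with edgeR 4.0.16 in R 4.3.3 (filterByExpr, which kept 19009 and 22099 genes, TMM, a mean per subpopulation and the robust quasi-likelihood F test). P-values were adjusted by Benjamini and Hochberg's method over all genes, with a threshold of 0.05. DESeq2 1.42.0, RLE factors, loess offsets, no filter, a replicate block and each library left out were alternatives. The fit was tested on simulated data. Named genes were the 10 members, the gene of smallest p in each list where none passed, and the 5 genes nearest to Pde3a per mark with at least 20 CPM, without predicted genes, clones, small RNAs or genes that overlap it. Members and lists were chosen with earlier results of these data known.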

Additional observations from a re-analysis of the deposited data

How the results depend on the processing

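The Pde3a differences kept their direction and moved by less than the spread between replicates under all 13 alternatives, from -1.16 to -1.0 (Tspan8) and -1.17 to -1.0 (Lgr5) log2 units in H3K4me3 and from 0.61 to 0.73 and 0.66 to 0.73 in H3K27me3. No result given with a test for a member or list gene passed in the reported analysis. Under an alternative 12 values did among the members and the list genes named here, all in H3K27me3. They included the Pde3a interaction with DESeq2 (-0.72) and Pde1c with Tspan8 without Lgr5-Tspan8- replicate 1 (-0.30). Calcrl with a replicate block (0.46, edgeR adjusted p = 0.0113) and Pde4c with the block (-0.36, edgeR adjusted p = 0.0276) were others. List genes not named here are outside that count. In H3K27me3 with Tspan8, DESeq2 called 2 of the other phosphodiesterases, Pde4c among them, and 1 maker of cGMP. The number of genes called depended on the setting. With DESeq2 it was 5 for H3K4me3 with Lgr5 (8 with edgeR), and for H3K27me3 476 with Tspan8 (74), 71 with Lgr5 (9) and 12 in the interaction (2). No filter gave 312, 42 and 15 for H3K27me3, and loess offsets 14 with Lgr5. The replicate block gave 678, 80 and 13; deviations of same-numbered libraries correlated at -0.03 to 0.14 for H3K4me3 and -0.01 to 0.12 for H3K27me3, so the numbers were not taken to pair samples. With each library left out in turn, the count ran for H3K4me3 from 1 (Lgr5-Tspan8- replicate 2 left out) up to 105 (Lgr5-Tspan8hi replicate 2 left out) with Tspan8, from 1 to 14 (the same libraries) with Lgr5 and from 0 to 15 in the interaction. For H3K27me3 it ran from 13 (without Lgr5+Tspan8- replicate 1) to 1240 (without Lgr5-Tspan8- replicate 1) with Tspan8, where each of the 8 moved it by over 1.5 times, from 3 to 165 with Lgr5 and from 0 to 109 in the interaction. At Pde4d, Pde1a and Pde1c, H3K4me3 rests on at most 24 reads a library, and differences there were not detectable at this depth.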

Other observations

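At Npr2 and Ptger2, named from the pathway lists, the difference with Tspan8 had opposite signs in Lgr5+ and Lgr5- cells. Npr2, the receptor for C-type natriuretic peptide that makes cGMP, had H3K27me3 of 13.8 and 11.8 CPM in Lgr5+Tspan8hi against 5.36 and 5.62 CPM in Lgr5+Tspan8-, and 4.14 and 7.57 CPM in Lgr5-Tspan8hi against 13.6 and 9.91 CPM in Lgr5-Tspan8- libraries. The interaction was 2.13 ± 0.53 log2 units and did not pass over all genes (edgeR adjusted p = 0.289), except without Lgr5-Tspan8hi replicate 2 (2.73, edgeR adjusted p = 0.0332). H3K4me3 at Npr2 was 49.2 to 77.5 CPM. Ptger2, a prostaglandin E2 receptor that raises cAMP, had H3K4me3 of 66.0 and 64.4 CPM in Lgr5+Tspan8hi against 79.8 and 108 CPM in Lgr5+Tspan8-, and 80.2 and 102 CPM in Lgr5-Tspan8hi against 78.1 and 66.1 CPM in Lgr5-Tspan8- libraries (interaction -0.86 ± 0.28, edgeR adjusted p = 1.0).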
